A study of Homo sapiens with 6 samples.

Results

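The genes examined here are 37 interferon-stimulated genes, named one by one in a fixed list and looked up by gene symbol among 19775 genes measured on the array. For 36 of the 37 a probe set naming the gene alone was found. STAT2 was the exception and was not analysed here, because the annotation used listed no probe set for it alone. Where several probe sets named a gene, the brightest on average over all samples was used. RIGI, which encodes the RNA sensor RIG-I, appears in older annotation as DDX58.

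Expression was measured in MCF10A cells, an immortalized line of human breast epithelium that does not form tumours, stably transfected with an shRNA against FRY (shFRY, 3 samples) or with a non-targeting shRNA (control, 3 samples). The FRY protein associates with microtubules and activates NDR kinases. A single puromycin-selected clone stood for each construct, so clone and construct cannot be told apart. Cultures of the same clone were taken at different passages, and the p-values reflect only the spread among them. Both clones grew as monolayers in a mammary epithelial medium with epidermal growth factor (20 ng/ml), insulin (10 ug/ml), hydrocortisone (5 ug/ml) and pituitary extract, and RNA was taken at 70% confluence. No interferon, virus or other agent is named in the labels. Values are log2 RMA signals from 1-colour arrays, a scale on which a difference of 1 is a doubling.

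Per the labels, FRY in the shFRY clone was about 60% below its level in MCF10A cells. On these arrays the mean of FRY was lower in shFRY at each of its 4 probe sets, with log2 differences from -0.75 to -0.32. Each of these falls was smaller than the labelled 60%. Only 1 of the 4 passed (limma adjusted p = 0.0223 over all probe sets). At the brightest, with means of 5.18 in control and 4.69 in shFRY, the samples overlapped and it did not pass (limma adjusted p = 0.203). Of 10 listed markers of basal mammary epithelium, KRT6A, KRT17 and TP63 were not measured. The 7 measured, of which EPCAM and CDH1 mark epithelium in general, had group means from 7.28 to 13.01, and 5 of them were higher in shFRY. These included the keratin gene KRT14 (by 2.92), LAMB3 (1.71) and ITGB4 (1.16). LAMB3 and ITGB4 encode parts of laminin and of an integrin. Of all genes, 13.7% passed an adjusted p of 0.05 as higher and 29.8% in either direction. Among genes with a mean above the median of all probe sets, as these 7 had, 44.2% passed in either direction. The 9 measured immune cell markers lay between 1.24 and 3.28, and 1 passed: PTPRC, the leukocyte antigen CD45, was lower in shFRY (3.19 against 2.13). Of 5 fibroblast markers, with means from 1.83 to 4.62, 0 were called in limma and 1 had an unadjusted p under 0.05. Of 5 endothelial markers, the receptor gene KDR fell from 5.80 to 3.35 and TEK rose from 1.73 to 3.58, while PECAM1 was at 7.54 and 7.40 and CDH5 and VWF lay between 1.99 and 2.50. The part of these marker differences in the results that follow was not tested. In such bulk samples fewer cells expressing a gene and less of its RNA per cell cannot be told apart.

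Interferons are secreted proteins that switch on an antiviral state. Type I interferons act through the receptor chains IFNAR1 and IFNAR2 and the kinases JAK1 and TYK2. The signal reaches the nucleus through the complex ISGF3, which contains STAT2 and IRF9 and binds the interferon-stimulated response element (ISRE) in the promoters of its targets. Genes induced by interferon-gamma often carry the gamma-activated site (GAS). Epithelial cells express a part of this gene set at a basal level without infection.

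The interferon-stimulated genes did not move in a common direction between the clones. Of the 36 measured genes, 7 were higher in shFRY (ISG20, RIGI, DDX60, OASL, IFI44, PARP14 and IRF1), 5 were lower (OAS1, HERC6, OAS3, USP18 and SAMD9), and 24 did not pass an adjusted p of 0.05 in limma. The 12 called genes are 33.3% of those measured, beside 29.8% of all 19775 genes, so the share lay near the background. Without control sample 3, 4 genes were called higher and 5 lower. By direction, the background was 13.7% of genes called higher and 16% called lower. The median log2 difference of the 36 genes was 0.08, against 0.03 for all genes, and their median absolute difference was 0.36 against 0.23. A change of at least 2-fold was called for 7 of the 36 genes, 3 higher and 4 lower, where 7.5% of all genes had one. The samples of the 2 groups did not overlap for 13 of the 36 genes (7 higher, 6 lower), beside 44.2% of all genes.

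RNA length and amplification can be read from the beta-actin controls, whose 3' signal exceeded the 5' signal by 2.52 ± 0.19 in control and by 2.87 ± 0.03 in shFRY samples (log2, SD, n = 3 each). The control samples were at 2.33 to 2.71 and the shFRY samples at 2.84 to 2.89, without overlap. This measure therefore cannot be fully told apart from the clone. With it as a covariate all 12 called genes kept their direction, but only ISG20 (2.41, limma adjusted p = 0.0447) and OAS1 (-2.06, limma adjusted p = 0.0481) still passed, as 5.19% of all genes did. Among the 10 others, the difference of PARP14 shrank to 0.39 with the covariate, while those of SAMD9 and OASL grew to -0.61 and 1.33. The median SE of the 36 differences was 0.17 without and 0.31 with the covariate. Of the 36 genes, 14 had a mean over all samples below 3.04, the median of all probe set values, and none of these 14 was called, beside 8.18% of all genes below that value. At such dim signals the array cannot show whether a gene is expressed. Among the 22 brighter members 12 were called, beside 44.2% of all brighter genes.

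**Figure D1:**
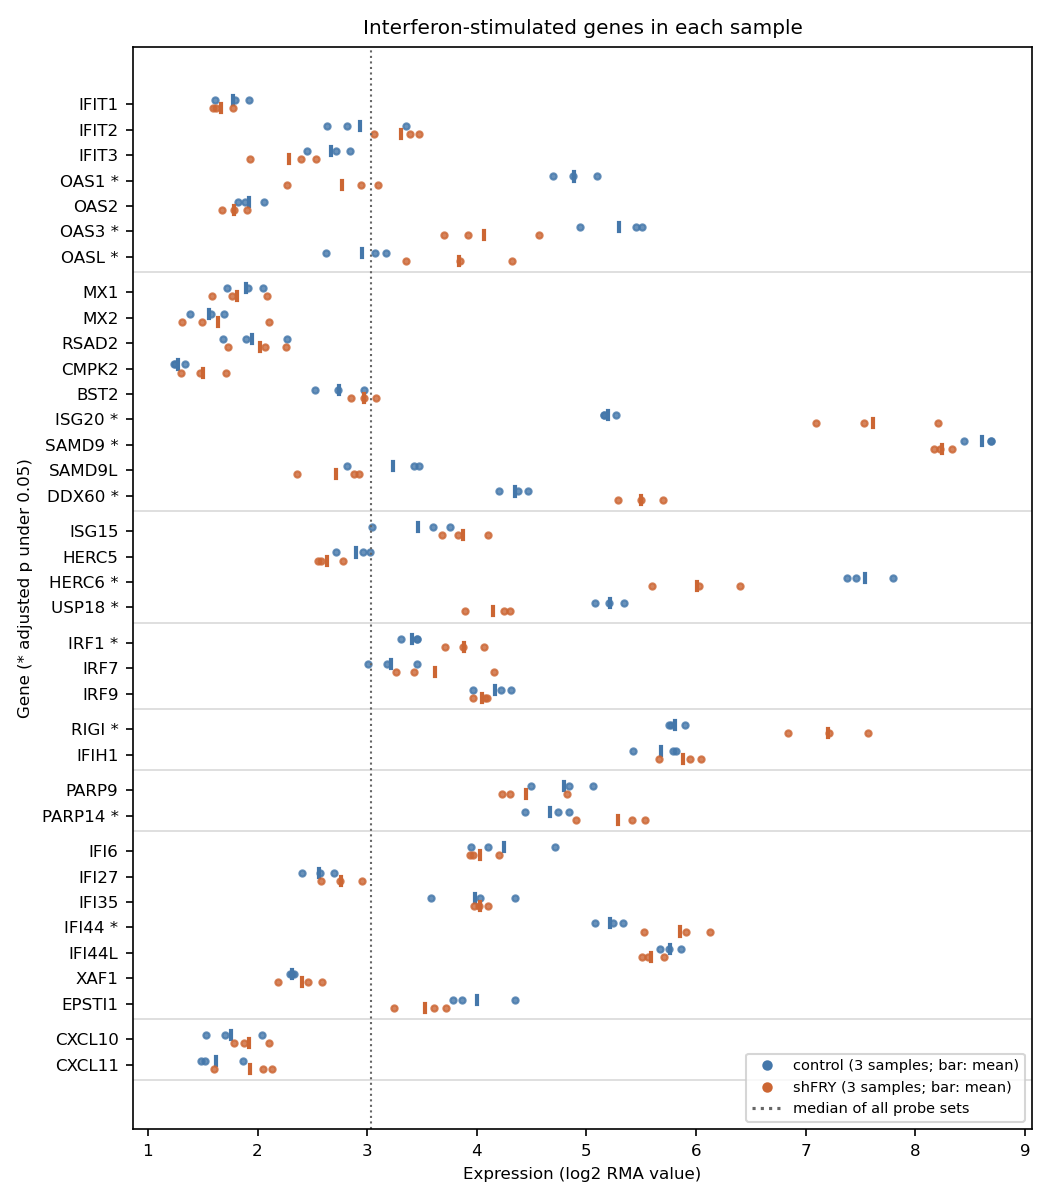
Log2 RMA signal (horizontal axis) of the 36 measured interferon-stimulated genes in each of the 3 control and 3 shFRY samples, with group means as bars, genes grouped by role, and the median of all probe set values (3.04) as a dotted line. Asterisks mark the 12 genes past the threshold, which lie to the right of the dotted line in their mean over all samples, while MX1, IFIT1, RSAD2, CMPK2 and CXCL10 lie to its left in both groups.

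**Figure D2:**
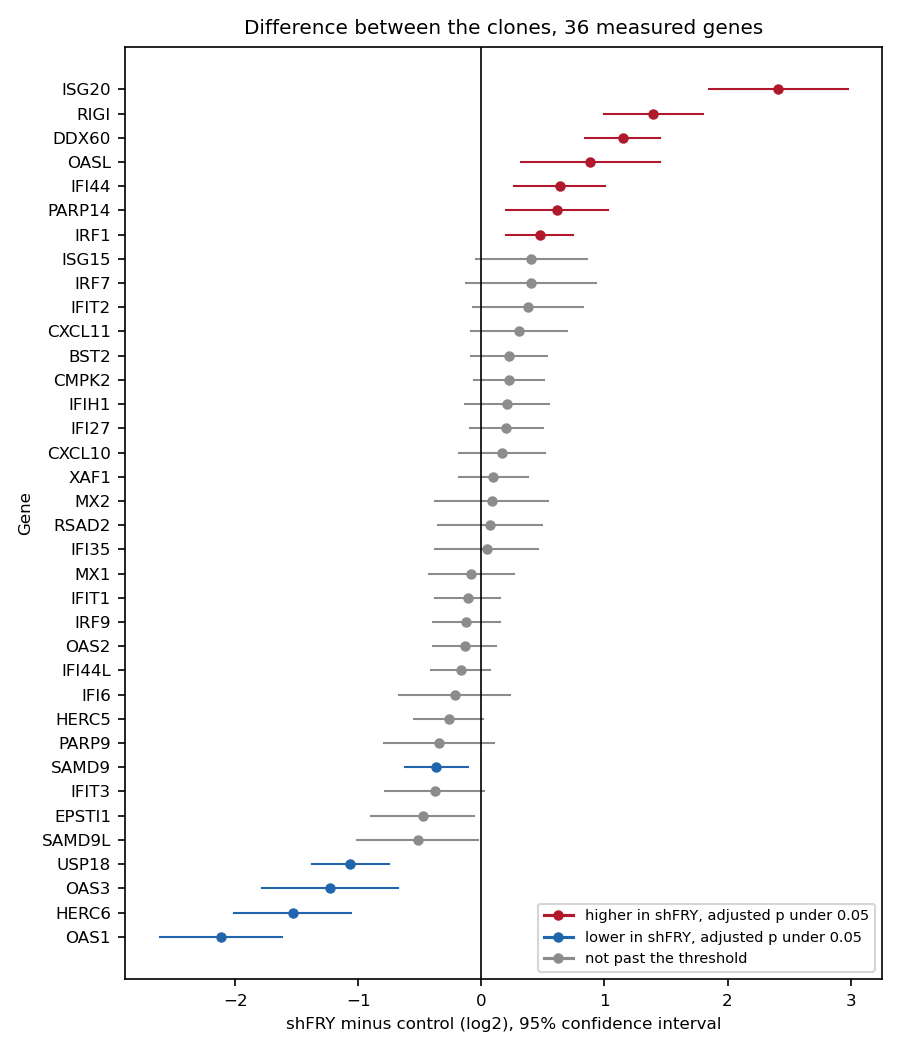
Difference between the clones (shFRY minus control, log2) for the 36 genes in order of size, with 95% confidence intervals from limma. The values run from -2.12 for OAS1 to 2.41 for ISG20, with 7 genes called higher, 5 called lower and 24 not past the threshold.

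Promoter sequence was used to see what the genes share beside their names. RefSeq promoters (GRCh38.p14, 250 bases before to 50 after the gene start) were found for 31 of the 37 genes. The ISRE core, written as GAAA, any 2 bases and GAAA, was searched on both strands. It was in 18 of these 31 promoters (58.1%), against 3.65% of 27305 promoters of the same length. It was in 4 of 6 promoters of genes called higher, in 2 of 4 of genes called lower and in 12 of 20 of genes that were measured and not called. The GAS core TTCNNNGAA, which reads the same on both strands, was in 10 of the 31 promoters (32.3%, against 7.88% of all), and an NF-kB site in 9 (29.0%, against 10.8% of all). In 3 of the promoters, those of BST2, EPSTI1 and IFI27, an ISRE match overlapped a GAS match. A match is a run of letters and not a measured binding site.

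The promoter stretches below show that the element occurs in front of genes that were higher, lower and not called. All lie before the gene start, run 5' to 3' on the gene's strand, and have ISRE core matches in capitals; TTTC, 2 bases and TTTC is the core on the other strand. ISG20 (chr15:88638926-88639015, plus strand), DDX60 (chr4:168318766-168318855, minus strand), IFI44 (chr1:78649699-78649788, plus strand) and PARP14 (chr3:122680749-122680838, plus strand) were higher in shFRY. OAS3 (chr12:112938316-112938473, plus strand) and SAMD9 (chr7:93118041-93118130, minus strand) were lower. IFIT1 (chr10:89392492-89392581, plus strand) and CXCL10 (chr4:76023644-76023733, minus strand) were dim in both clones.
ISG20: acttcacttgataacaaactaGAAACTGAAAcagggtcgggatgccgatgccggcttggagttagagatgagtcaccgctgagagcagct
DDX60: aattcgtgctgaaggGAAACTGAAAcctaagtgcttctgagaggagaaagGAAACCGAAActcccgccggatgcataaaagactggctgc
IFI44: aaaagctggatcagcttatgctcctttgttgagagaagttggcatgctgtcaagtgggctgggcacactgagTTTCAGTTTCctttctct
PARP14: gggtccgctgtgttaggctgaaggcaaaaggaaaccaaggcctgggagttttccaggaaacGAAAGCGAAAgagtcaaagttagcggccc
OAS3: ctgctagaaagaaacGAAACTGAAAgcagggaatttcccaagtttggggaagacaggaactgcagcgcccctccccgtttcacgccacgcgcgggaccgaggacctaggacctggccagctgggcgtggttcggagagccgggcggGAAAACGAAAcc
SAMD9: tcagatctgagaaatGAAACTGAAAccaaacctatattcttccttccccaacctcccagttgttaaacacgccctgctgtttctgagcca
IFIT1: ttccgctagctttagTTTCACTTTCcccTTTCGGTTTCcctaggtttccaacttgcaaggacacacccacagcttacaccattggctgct
CXCL10: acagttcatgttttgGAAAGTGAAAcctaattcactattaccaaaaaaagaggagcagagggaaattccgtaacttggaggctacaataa

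The oligoadenylate synthetase family split by member. OAS1 and OAS3 encode enzymes that sense double-stranded RNA and make the messenger that activates RNase L. OAS1 was at 4.88, 5.10 and 4.70 in control samples 1 to 3 and at 3.10, 2.95 and 2.27 in shFRY samples 1 to 3. All shFRY values lay well below the control values, a 4.34-fold fall (log2 difference -2.12, SE 0.22, limma adjusted p = 0.000237; 95% confidence interval 3.08 to 6.12). Its second probe set fell as well, by 1.40 on the log2 scale. OAS3 was at 4.94, 5.45 and 5.51 in the control samples and at 3.92, 3.70 and 4.57 in the shFRY samples. The groups did not overlap, and OAS3 fell 2.35-fold (log2 difference -1.23, SE 0.24, limma adjusted p = 0.00564). Both of its probe sets were called lower. OAS2, the third enzyme, was dim throughout, with group means of 1.92 and 1.79 and a limma adjusted p of 0.408.

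OASL, a relative of these enzymes that has lost synthetase activity and promotes signalling by RIG-I, went the other way. It was at 3.07, 3.17 and 2.62 in the control samples and at 4.32, 3.36 and 3.85 in the shFRY samples. The lowest shFRY value lay just above the highest control value, and the rise was 1.85-fold (log2 difference 0.89, SE 0.24, limma adjusted p = 0.0268). Its other probe set rose by 1.23. The call at the representing probe set was lost without control sample 1 or 3 or shFRY sample 1 or 3 (limma adjusted p = 0.0648, 0.0909, 0.0616 and 0.0616).

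The IFIT genes encode proteins that bind foreign RNA ends and block translation, and none of the 3 passed. IFIT1 was at the floor in all samples (means 1.78 and 1.67), and IFIT3 had means of 2.67 and 2.29 (limma adjusted p = 0.143). IFIT2 differed by probe set. At the probe set that represented it the difference was 0.38 (limma adjusted p = 0.193), while at the other the control samples were at 1.75, 2.31 and 2.20 and the shFRY samples at 3.38, 3.02 and 2.76, without overlap (difference 0.97, limma adjusted p = 0.00855 over all probe sets). The probe set background of calls was 23.1%. The call of IFIT2 therefore turns on the choice of probe set. The gene was also called higher as the mean of its 2 probe sets, and without control sample 1.

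Among the other antiviral effectors ISG20 had the largest rise of all 36 genes. ISG20, an RNA exonuclease, was at 5.27, 5.16 and 5.16 in the control samples and at 8.21, 7.53 and 7.10 in the shFRY samples. The control samples were nearly identical and every shFRY sample was far above them, a 5.33-fold rise (95% confidence interval 3.61 to 7.87; log2 difference 2.41, SE 0.24, limma adjusted p = 0.000231). Its second probe set gave the same difference of 2.41. DDX60, a helicase that takes part in RIG-I signalling, was at 4.20, 4.38 and 4.46 in the control samples and at 5.70, 5.50 and 5.29 in the shFRY samples. It rose 2.22-fold with a narrow spread in both groups (log2 difference 1.15, SE 0.13, limma adjusted p = 0.000422). DDX60 had 1 probe set, of the _s_at kind, so it was not measured once _s_at and _x_at probe sets were left out.

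SAMD9, a restriction factor for poxviruses, was at 8.44, 8.69 and 8.69 in the control samples and at 8.34, 8.22 and 8.17 in the shFRY samples. The groups were close but did not overlap, and the log2 difference was -0.37 (SE 0.11, limma adjusted p = 0.0384). This call was lost without control sample 2 or 3 or shFRY sample 2 or 3 (limma adjusted p = 0.123, 0.125, 0.0945 and 0.0909). Its neighbour SAMD9L had a difference of -0.52 with overlapping samples and did not pass (limma adjusted p = 0.110), but was called without control sample 3. The GTPase genes MX1 and MX2, RSAD2, which encodes viperin, the nucleotide kinase gene CMPK2 and BST2, which encodes tetherin, had group means between 1.28 and 2.97. Their differences ran from -0.08 to 0.23, and in each case the samples of the 2 groups overlapped.

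Of the genes grouped here with ISG15, USP18 and HERC6 were lower in shFRY, while ISG15 itself and HERC5 did not pass. ISG15 is a ubiquitin-like protein that HERC5 attaches to targets in human cells and that USP18 removes. USP18, which also blocks signalling at IFNAR2, was at 5.21, 5.34 and 5.08 in the control samples and at 3.89, 4.25 and 4.30 in the shFRY samples. The 2 groups were well separated, and USP18 fell 2.09-fold (log2 difference -1.06, SE 0.14, limma adjusted p = 0.000726). HERC6, a relative of HERC5, was at 7.80, 7.46 and 7.37 in the control samples and at 5.60, 6.03 and 6.40 in the shFRY samples. It fell 2.89-fold (log2 difference -1.53, SE 0.21, limma adjusted p = 0.000918), and its other probe set, at 1.37 to 1.93 in all samples, was not called. ISG15 itself was at 3.60, 3.05 and 3.76 against 4.10, 3.68 and 3.83, which overlap (difference 0.41, limma adjusted p = 0.162). HERC5 had means of 2.90 and 2.63 and did not pass (limma adjusted p = 0.142).

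Of the transcription factors of the pathway, IRF1 was higher in shFRY. IRF1, a factor induced by interferon-gamma and by NF-kB, was at 3.46, 3.46 and 3.31 in the control samples and at 3.87, 3.71 and 4.06 in the shFRY samples. The groups did not overlap, and the rise was 1.39-fold (log2 difference 0.47, SE 0.12, limma adjusted p = 0.0175). Its second probe set rose by 0.74. Without control sample 3 the call was lost (limma adjusted p = 0.0672). IRF7, which amplifies interferon production, was at 3.01, 3.18 and 3.45 in the control samples and at 4.16, 3.43 and 3.26 in the shFRY samples, so that 1 shFRY sample stood above overlapping values (difference 0.40, limma adjusted p = 0.235). IRF9, the DNA-binding part of ISGF3, was at 4.22, 4.31 and 3.97 against 4.08, 4.09 and 3.97. These values overlap, and the 95% confidence interval of the difference was -0.39 to 0.15.

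Of the cytoplasmic RNA sensors, RIGI rose and IFIH1 did not pass. RIGI was at 5.90, 5.75 and 5.77 in the control samples and at 6.84, 7.21 and 7.57 in the shFRY samples. Every shFRY value was above every control value by a wide margin, a 2.63-fold rise (95% confidence interval 1.99 to 3.48; log2 difference 1.40, SE 0.17, limma adjusted p = 0.000639). All 3 RIGI probe sets were called higher. IFIH1, which encodes the related sensor MDA5, was at 5.42, 5.79 and 5.82 against 5.66, 5.95 and 6.05, a difference of 0.21 with overlap (limma adjusted p = 0.347), and none of its 3 probe sets was called. With the beta-actin covariate the RIGI difference was 1.59 (limma adjusted p = 0.0511).

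The PARP genes belong to a family that attaches ADP-ribose to proteins. PARP14 was at 4.44, 4.84 and 4.74 in the control samples and at 4.91, 5.41 and 5.54 in the shFRY samples. The groups were adjacent without overlap, and the rise was 1.53-fold (log2 difference 0.61, SE 0.18, limma adjusted p = 0.0350). The call was lost without any 1 of control samples 1, 2 and 3 and shFRY samples 2 and 3 (limma adjusted p = 0.123, 0.0509, 0.0738, 0.0983 and 0.0958), and the mean of its 2 probe sets gave a difference of 0.24 (0.0941). PARP9, which acts with the ligase DTX3L, had a difference of -0.35 with overlapping samples (limma adjusted p = 0.229).

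Of the remaining induced genes, IFI44 alone passed. IFI44 was at 5.08, 5.24 and 5.33 in the control samples and at 6.13, 5.52 and 5.91 in the shFRY samples. The shFRY samples all lay higher, a 1.55-fold rise (log2 difference 0.64, SE 0.16, limma adjusted p = 0.0183). Without control sample 1 or 2 the call was lost (limma adjusted p = 0.0725 and 0.0516), and without probe sets of the _s_at and _x_at kinds another probe set stood for it at 0.28 (0.285). Its neighbour and paralog IFI44L was at 5.75, 5.87 and 5.67 against 5.56, 5.51 and 5.70, with a difference of -0.17 (limma adjusted p = 0.273). EPSTI1 was at 3.87, 3.78 and 4.35 against 3.61, 3.72 and 3.25. Its groups did not overlap, but the difference of -0.48 missed the threshold (limma adjusted p = 0.0863). IFI6, IFI27, IFI35 and the apoptosis-linked gene XAF1 had differences from -0.22 to 0.20 and limma adjusted p-values of 0.289 to 0.888.

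The interferon-induced chemokine genes CXCL10 and CXCL11, which encode T-cell attractants, were at the floor in both clones. CXCL10 was at 1.70, 1.53 and 2.04 in the control samples and at 1.88, 2.10 and 1.78 in the shFRY samples. CXCL11 was at 1.87, 1.52 and 1.48 against 2.13, 1.60 and 2.05. Neither separated the groups (limma adjusted p = 0.470 and 0.222).

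**Figure D3:**
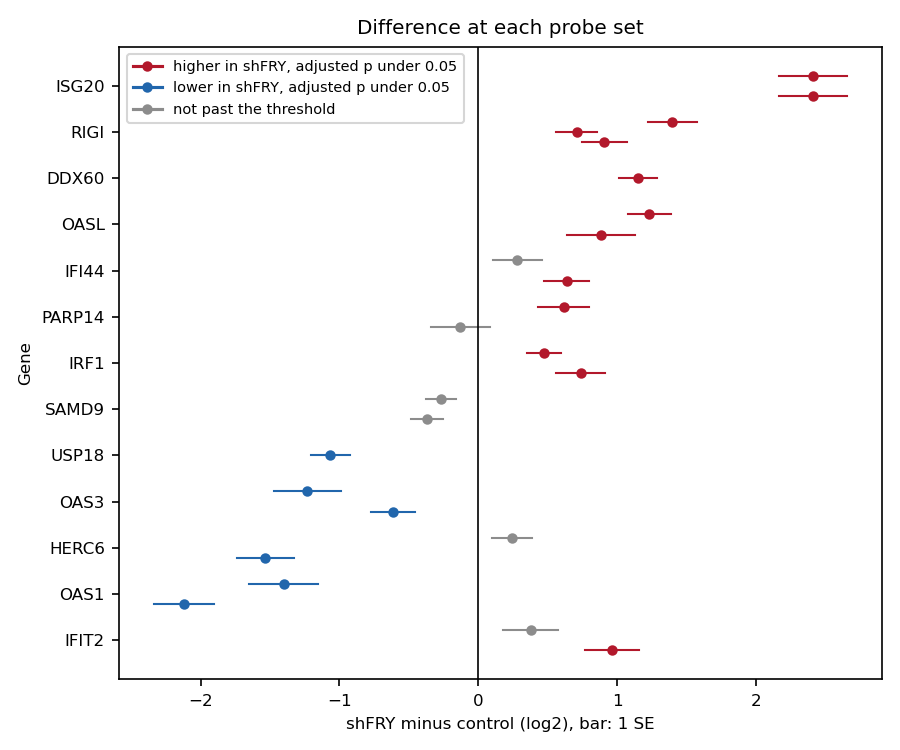
Difference between the clones (shFRY minus control, log2, bars 1 SE) at every probe set of the 12 called genes and of IFIT2, from a fit over 54613 probe sets. All probe sets of ISG20, RIGI, OASL, IRF1, OAS1 and OAS3 were called in the direction of the gene, while HERC6, IFI44, PARP14 and IFIT2 each have a probe set that was not called, and neither SAMD9 probe set passed over all probe sets.

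The genes that moved did not share 1 order among the shFRY samples. Of the 7 genes called higher, 4 (ISG20, DDX60, OASL and IFI44) had their highest value in shFRY sample 1, and the other 3 (RIGI, IRF1 and PARP14) in shFRY sample 3. Of the 5 genes called lower, USP18 and HERC6 were lowest in shFRY sample 1, OAS3 in sample 2, and OAS1 and SAMD9 in sample 3. The members varied somewhat more within a group than genes at large: their median SD was 0.20 in the control and 0.22 in the shFRY samples, against 0.13 and 0.15 for all genes (log2, n = 3 each).

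Many interferon-stimulated genes lie in clusters, and neighbours did not always move together. In the RefSeq gene order 11 pairs of members have at most 3 coding genes between them. In 1 pair, OAS1 and OAS3, both genes were called, and in the same direction. In 5 pairs 1 gene was called: IFI44 beside IFI44L, OAS3 beside OAS2, PARP14 beside PARP9, HERC6 beside HERC5 and SAMD9 beside SAMD9L. In the other 5 pairs, which include MX1 with MX2, CMPK2 with RSAD2 and CXCL10 with CXCL11, neither gene was called.

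Upstream of these genes, no interferon gene was called and receptor genes for interferon-gamma rose. The lists that follow hold genes outside the 37 and are set against the same background of 29.8%. That share depends on signal: 44.2% of all genes with a mean above 3.04 were called, and 8.18% of those below it. Apart from the interferon genes, each list had more genes above 3.04 than below it, so 44.2% is the closer background for most of their genes. Of 18 measured interferon genes 0 were called in limma, 3 having an unadjusted p under 0.05, and 17 of the 18 had a mean below 3.04. IFNE, an interferon gene of epithelia, was the exception, with a mean of 3.41 in the shFRY samples. The smallest p-values belonged to IFNA10 (difference 0.34, limma adjusted p = 0.0520) and IFNE (0.40, limma adjusted p = 0.0586), and under median centring both passed (0.0411 and 0.0476). Without control sample 1 or shFRY sample 2, 1 interferon gene was called. The type I interferon gene IFNB1 had means of 1.28 and 1.40. The IFNA genes are near-identical copies whose probes can cross-hybridise. Of 9 receptor and JAK kinase genes, 3 were higher and 0 lower: IFNGR2 rose by 1.20 (6.70 to 7.90), IFNGR1 by 1.07 (9.66 to 10.73) and JAK1 by 0.52, which with the beta-actin covariate was at 0.49 and did not pass (limma adjusted p = 0.295). The type I receptor genes IFNAR1 (-0.26) and IFNAR2 (0.34) did not pass. With _s_at and _x_at probe sets left out IFNGR1 was at 0.44 (limma adjusted p = 0.0796).

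Of 17 measured sensors and adaptors outside the list, 4 were higher and 5 lower. SAMHD1, a nucleotide phosphohydrolase that limits viral DNA synthesis, fell by 1.65, the DNA sensor gene CGAS fell by 0.98, and MAVS, the adaptor through which RIG-I signals, fell by 0.85 with all 4 of its probe sets called lower. The DNA-binding protein gene IFI16 rose by 1.08 with all 3 probe sets called higher. With _s_at and _x_at probe sets left out CGAS was at 0.13, and with the beta-actin covariate SAMHD1, CGAS and MAVS were at -1.85, -1.06 and -0.69 and did not pass (limma adjusted p = 0.168, 0.161 and 0.156). Their SEs were 0.32, 0.18 and 0.12 without and 0.65, 0.36 and 0.23 with the covariate. Of 11 negative regulators, 3 were higher and 2 lower. The cytokine signalling suppressor gene SOCS2 rose by 1.83 and the phosphatase gene PTPN1 by 0.84, while TRIM24 fell by 0.82 and the phosphatase gene PTPN6 by 0.81. PTPN1 was at 0.03 as the mean of its 4 probe sets, TRIM24 was at 0.0049 once _s_at and _x_at probe sets were left out, and PTPN6 missed without control sample 1 (limma adjusted p = 0.0528). With the beta-actin covariate TRIM24 and PTPN6 were at -0.85 and -0.81, about as before, and did not pass (limma adjusted p = 0.0809 and 0.314), with SEs of 0.22 and 0.40 against 0.11 and 0.19 without it.

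A second list of 34 measured type I interferon-stimulated genes was also mixed, with 5 higher and 6 lower and a median difference of 0.06. ZC3HAV1, the zinc-finger antiviral protein, fell by 2.49 with all 3 probe sets called lower. GMPR, a guanosine nucleotide reductase, fell by 2.46, and CNP, a phosphodiesterase, by 1.08. SLFN5, a Schlafen family gene, rose by 1.48 with all 6 of its probe sets called higher. With those probe set kinds left out CNP was at -0.22. Of 16 measured interferon-gamma response genes, 5 were higher and 1 lower, with a median of 0.13. The adhesion molecule gene ICAM1, which NF-kB also induces, rose by 2.98, the tryptophanyl-tRNA synthetase gene WARS1 by 1.20 and CD274, which encodes PD-L1, by 0.89. CIITA, the activator of MHC class II genes, fell by 0.90, a call lost without any 1 of control samples 1, 2 and 3 and shFRY samples 2 and 3 (limma adjusted p = 0.0536, 0.109, 0.140, 0.0597 and 0.0700). As the mean of its probe sets CIITA was at -0.15. With the beta-actin covariate the CIITA difference was larger, at -1.67, and that of CD274 smaller, at 0.42, and both calls were lost (limma adjusted p = 0.102 and 0.467). GBP1 and GBP2 of the same list rose by 0.87 and 0.74 (limma adjusted p = 0.00116 and 0.00686). Of their probe sets, 2 of 4 and 1 of 2 were called higher, while GBP4 and GBP5 did not pass. CXCL9 and IDO1, which interferon-gamma induces strongly in many cells, had means of 1.58 to 2.05 and did not pass. The differences between these lists were not tested.

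**Figure D4:**
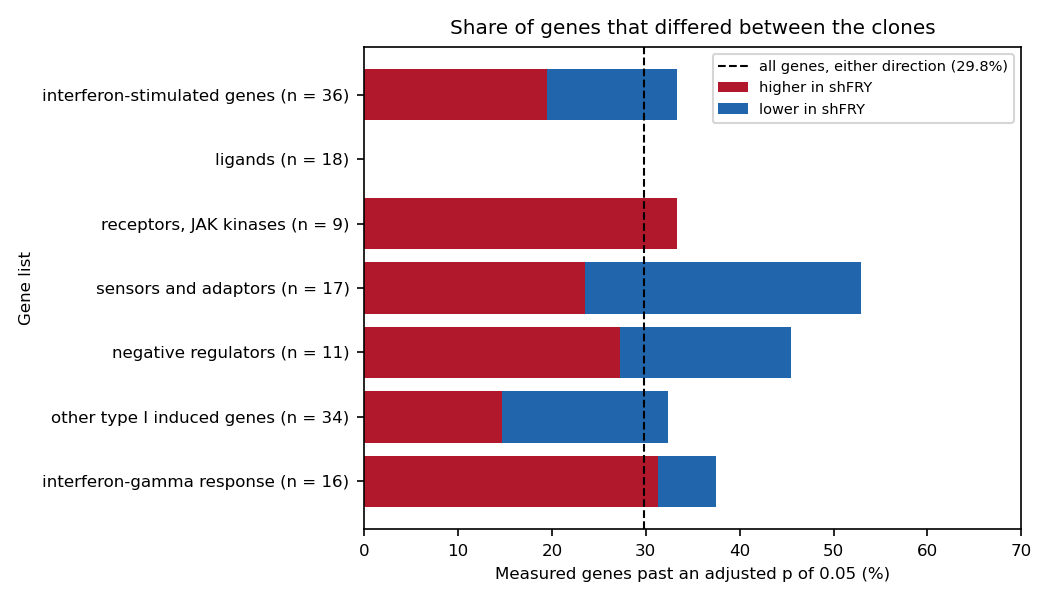
Share of measured genes (percent, horizontal axis) called higher (red) or lower (blue) in shFRY for the interferon-stimulated genes and the 6 lists of pathway genes, with the share of all genes called in either direction (29.8%) as a dashed line. Among all genes with a mean above the median of all probe sets that share was 44.2%, which is not drawn. The bar of the interferon-stimulated genes ends at 33.3%, the interferon ligands have no bar because 0 of 18 were called, and the interferon-gamma response genes have 5 of 16 higher and 1 lower.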

How the data were processed

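Gene expression was measured in 3 control and 3 shFRY samples, grouped by their titles, each on its own array. The authors deposited RMA signals in log2 units (RMA is named in the submitters' processing notes, with version and settings not given in the sources used here). This method usually makes arrays alike, so a change shared by all genes cannot be seen, and compresses differences of dim probe sets. Sample medians lay between 3.02 and 3.06, and the number of arrays limits the precision.

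Of 54675 probe sets, 62 were controls, 41091 named 1 gene, 1801 several and 11721 none. Symbols were updated through Entrez IDs to RefSeq (GRCh38.p14; 41037 matched, 54 kept the old symbol). The probe set with the highest mean stood for each of 19775 genes. Groups were compared in R 4.3.3 by limma 3.58.1, using lmFit and eBayes with 4 residual degrees of freedom, with Benjamini-Hochberg adjustment over all genes and a threshold of 0.05; probe sets were tested in the same way over 54613. Values of all 6 samples are given for genes past the threshold and for IRF7 and IRF9; values of other genes were added after they were seen. From each pathway list up to 4 called genes with the largest difference, or 2 with the smallest p, are named, and others were chosen after their values were seen. On simulated data with 200 of 19775 genes changed, 29.9%, 71.6% and 97.0% of 1.5-, 2- and 4-fold changes were recovered. With none changed, 0 genes were called. In the real data 29.8% of genes were called, a much larger share than was changed in the simulation. The recovered shares therefore need not hold for the real comparison.

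The alternatives were median centring, another quantile normalization, trend and robust eBayes, the upper part of genes by mean, averaging all probe sets of a gene, no _x_at or _s_at probe sets, array weights, the replicate number as a block, a beta-actin covariate and leaving out each sample. Members and lists were chosen with earlier results of these data known.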

Additional observations from a re-analysis of the deposited data

How the results depend on the processing

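Under the alternatives run, the 12 called genes gave 176 further values: all kept their direction, and 29 of them lost the threshold. With the beta-actin covariate 1 gene was called higher and 1 lower, and the counts were 1 of the sensors, 2 of the negative regulators, 4 of the second type I list and 2 of the interferon-gamma list; IRF7 was at -0.065 and IRF9 at 0.10 there, against the sign given above. Leaving out 1 sample gave 4 to 6 genes higher and 4 to 5 lower, with IFIT2 gained without control sample 1 and SAMD9L without control sample 3, a median difference of 0.0062 to 0.099, and 0 to 1 interferon genes. With the upper part of genes by mean the median was -0.12 over the 15 genes kept. Without _x_at and _s_at probe sets 3 negative regulators and 7 genes of the second type I list were called, CGAS was at 0.13 and TRIM24 at 0.0049. Interferon genes called numbered 2 under median centring, the mean of probe sets and array weights, and 1 under another quantile normalization, trend and robust eBayes and the replicate block. With the replicate block 7 of the 36 genes were higher and 5 lower; SAMD9 (limma adjusted p = 0.0813) and CIITA (0.0795) were lost and IFIT3 passed. Replicate numbers did not pair the samples: deviations of same-numbered samples correlated at -0.0002, -0.0024 and 0.0068 across genes. The cause of these shifts was not tested. Low signal over background limits the 14 dim genes.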
